A study of Mus musculus with 8 samples.

Results

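Aminoacyl-tRNA synthetases join each amino acid to its tRNA, the step that supplies the ribosome. The genes described here are 36 of the 13607 in the count table, chosen by symbol: 20 synthetases of the cytosol and 16 of mitochondria, whose symbols end in 2. All 36 were in the table and all 36 passed the filter on low counts. Lars2, the mitochondrial leucyl enzyme, is treated apart because its reads followed those of the ribosomal RNA transcript Rn45s, which leaves 15 mitochondrial genes.

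RNA came from cultured C57BL/6J mouse astrocytes with floxed Yap and Taz alleles (Yapf/f;Tazf/f), which Cre recombinase can delete, grown with EGF and bFGF, and it was sequenced from polyA libraries. Lentiviral transduction gave the cells HER2CA, a form of the receptor tyrosine kinase HER2 that doxycycline induces, together with rtTA, the activator that senses doxycycline, and CreERT2, which needs 4-hydroxytamoxifen (4OH-TAM) to act. The 8 libraries form 4 groups of 2 (A and B). Gliomaspheres were P1 spheres with HER2CA, kept in suspension with doxycycline and taken 3 weeks after the start. The 4OH-TAM-labelled libraries came from HER2CA astrocytes given doxycycline and 1 µM 4OH-TAM for 15 days, which the labels call YAP/TAZ knockout. HER2CA day 15 astrocytes had doxycycline for 15 days without 4OH-TAM. Controls were astrocytes that had not been transformed and had no doxycycline, and whether they carried the constructs is not given. Gliomaspheres and HER2CA day 15 are listed with DMSO in one label and as untreated in another, so the vehicle is uncertain. Nothing says that A and B were separate cultures, so the p-values rest on the spread within pairs of libraries, which may be technical.

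Cytosol and mitochondria keep separate sets of synthetases, both encoded in the nucleus, because mitochondria translate their own transcripts with their own tRNAs. Some enzymes serve both places: Gars and Kars each give rise to a cytosolic and a mitochondrial form, so the cytosolic class here goes by symbol. Eprs is a single protein with glutamyl and prolyl activities. Farsa and Farsb are the subunits of the cytosolic phenylalanyl enzyme. Qars, the glutaminyl enzyme, has no mitochondrial partner, since mitochondria make glutaminyl-tRNA by amidating glutamyl-tRNA. Many cytosolic synthetase genes are known targets of ATF4 and CHOP, transcription factors of the integrated stress response. That response is switched on when kinases phosphorylate the initiation factor eIF2alpha, for example on amino acid shortage.

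The C/EBP-ATF response element, the kind of site ATF4 binds, has the core TGATGNAA. It was searched on both strands from 250 bases before to 50 after the RefSeq start site (GRCm38.p6), and 27 of the 36 members had a promoter in that table. Counted by gene, the core was present in 5 of 13 cytosolic members (38.5%) and in 0 of 14 mitochondrial ones. It was present in 4.51% of all genes with a promoter and in 2.7% of those in the count table, matched by symbol. Counted by promoter, 3.97% of all those of that length held it. All 5 genes belong to the 13 cytosolic synthetases known as ATF4 or CHOP targets, of which 8 had a promoter. The search used no expression value, but the list of targets was written with earlier results of these data known. A match is a description of the letters and does not show binding. The 30-base windows around cores of Yars, Aars and Iars are shown first because these cores lie just after the start site, written 5′ to 3′ on the gene's strand with the 8 bases of the core in capitals. Those of Aars and Iars read as the core on the opposite strand. Aars holds a further core on the opposite strand, not shown, beginning 112 bases before the start site.
Yars (chr4:129189895-129189924, plus strand): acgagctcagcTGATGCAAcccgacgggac
Aars (chr8:111033840-111033869, plus strand): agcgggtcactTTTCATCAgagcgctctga
Iars (chr13:49682126-49682155, plus strand): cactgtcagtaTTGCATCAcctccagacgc

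For Gars and Tars the 250 bases before the start site are shown, with the core in capitals, because their cores lie wholly upstream, beginning 30 and 15 bases before the start. The same stretch of Ears2, the mitochondrial gene with the highest fold change in HER2CA day 15, is given beside them as a promoter with no match.
Gars (chr6:55037751-55038000, plus strand): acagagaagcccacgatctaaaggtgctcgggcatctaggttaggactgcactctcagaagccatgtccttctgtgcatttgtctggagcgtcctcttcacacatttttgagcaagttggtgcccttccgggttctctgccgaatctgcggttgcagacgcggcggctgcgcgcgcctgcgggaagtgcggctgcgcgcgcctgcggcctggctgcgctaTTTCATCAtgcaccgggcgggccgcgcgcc
Tars (chr15:11399659-11399908, minus strand): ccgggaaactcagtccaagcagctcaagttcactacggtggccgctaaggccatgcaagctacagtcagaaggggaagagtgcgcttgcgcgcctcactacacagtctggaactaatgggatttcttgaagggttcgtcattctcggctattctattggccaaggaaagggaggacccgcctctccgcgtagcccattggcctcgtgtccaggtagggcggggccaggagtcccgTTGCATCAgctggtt
Ears2 (chr7:122067087-122067336, minus strand): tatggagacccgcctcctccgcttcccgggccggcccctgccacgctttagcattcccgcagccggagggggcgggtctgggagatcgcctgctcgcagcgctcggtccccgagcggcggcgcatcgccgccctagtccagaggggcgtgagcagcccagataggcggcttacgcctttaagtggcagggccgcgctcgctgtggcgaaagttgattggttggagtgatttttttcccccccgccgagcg

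Library totals were 15517708 to 28231426 counts. Gliomaspheres B stands apart: Rn45s took 36.1% of its counts, against 0.984 to 2.92% in the other 7 libraries, so the gliomasphere counts are also given without it. Levels are CPM, counts relative to library size, with library sizes scaled by trimmed mean of M-values. Yap1 averaged 105 CPM in the 4OH-TAM-labelled libraries and 102 CPM at HER2CA day 15 (log2 fold change 0.04 with SE 0.0682, edgeR quasi-likelihood adjusted p = 0.569). Wwtr1, which encodes TAZ, averaged 122 and 202 CPM in the same groups (log2 fold change -0.73 with SE 0.0687, edgeR quasi-likelihood adjusted p = 1.25e-07). The Yap1 counts therefore do not bear out the knockout label and the group is called by its label throughout. Gene counts do not show which part of a transcript is present. Erbb2, the mouse gene of HER2, did not pass the test between HER2CA day 15 and controls (log2 fold change -0.07 with SE 0.08602, edgeR quasi-likelihood adjusted p = 0.461), and whether construct reads were counted to it is not given.

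The astrocyte markers (10 of 10 measured) summed to 11281 and 11762 CPM in gliomaspheres, 11987 and 12456 CPM in the 4OH-TAM-labelled libraries, 2638 and 2711 CPM at HER2CA day 15 and 6002 and 7031 CPM in controls, lowest at HER2CA day 15. Markers of microglia (9 of 10) summed to 52.9 and 54.5 CPM in gliomaspheres, 338 and 315 CPM in the 4OH-TAM-labelled libraries, 159 and 173 CPM at HER2CA day 15 and 143 and 153 CPM in controls. At HER2CA day 15, 6 of them were called lower (38.4% of all genes) and 1 higher (37.3%) than in controls. The median log2 fold change of the 9 was -1.01. The higher one, Cd68, made up most of the sum, at 124 and 135 CPM at HER2CA day 15 and 87.5 and 89.4 CPM in controls. Those of the oligodendrocyte lineage (8 of 8) summed to 3299 and 2988 CPM in gliomaspheres, 884 and 936 CPM in the 4OH-TAM-labelled libraries, 113 and 102 CPM at HER2CA day 15 and 423 and 464 CPM in controls, also lowest at HER2CA day 15. Olig1 made up most of the gliomasphere sum, at 2362 and 2156 CPM. Of the 8, 7 were called higher in gliomaspheres than in controls (32.5% of all genes) and 1 lower (32%). The lower one was Cspg4, at 82.6 and 85 CPM in gliomaspheres and 137 and 148 CPM in controls. Markers of fibroblasts and mural cells (7 of 8) summed to 24.1 and 27.1 CPM in gliomaspheres, 210.0 and 174 CPM in the 4OH-TAM-labelled libraries, 34.3 and 34.6 CPM at HER2CA day 15 and 80.2 and 79.6 CPM in controls. In HER2CA day 15 B, 1 of them had 0 counts, and no other measured marker was at 0 in any library. Those of neurons (3 of 6) summed to 591 and 592 CPM in gliomaspheres, 360.3 and 374 CPM in the 4OH-TAM-labelled libraries, 131 and 139.8 CPM at HER2CA day 15 and 341 and 344 CPM in controls. Map2 made up most of this sum, at 583 and 584 CPM in gliomaspheres and 292 and 295 CPM in controls. In gliomaspheres 2 of these markers were called higher than in controls (32.5% of all genes) and 1 lower (32%). The lower one was Stmn2, at 4.44 and 5.06 CPM in gliomaspheres and 47.3 and 48.3 CPM in controls. The 1 measured endothelial marker of 5 was at 0.796 and 0.506 CPM in gliomaspheres, 2.68 and 2.75 CPM in the 4OH-TAM-labelled libraries, 0.183 and 0.207 CPM at HER2CA day 15 and 0.346 and 0.371 CPM in controls. The part of these markers in the synthetase results was not tested. In bulk RNA fewer cells of a type and less RNA per cell cannot be told apart.

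The 20 cytosolic synthetase transcripts together stood at 2163 and 2259.5 CPM in gliomaspheres, 3664 and 4198 CPM in the 4OH-TAM-labelled libraries, 9166 and 9262 CPM at HER2CA day 15 and 2189 and 2270.0 CPM in controls. HER2CA day 15 lay above all other libraries, the 4OH-TAM-labelled libraries lay between, and gliomaspheres and controls overlapped. The 15 mitochondrial ones together stood at 418 and 406 CPM in gliomaspheres, 385 and 384 CPM in the 4OH-TAM-labelled libraries, 581 and 586 CPM at HER2CA day 15 and 396 and 390.1 CPM in controls. Here too HER2CA day 15 was highest, but the other 6 libraries lay within 384 to 418 CPM. Exon lengths used below join the exons of all annotated transcripts of a gene. Per kilobase of exon, so that genes can be added on one scale, the cytosolic sum was 5.82 and 6.27 times the mitochondrial sum in gliomaspheres, 9.77 and 11.2 times in the 4OH-TAM-labelled libraries, 15.5 and 15.4 times at HER2CA day 15 and 6.098 and 6.52 times in controls. Reads of the cytosolic members made up 0.941 and 0.951% of all counts at HER2CA day 15, against 0.232 and 0.242% in controls. Between the highest and the lowest group mean, cytosolic members spanned 1.300 to 7.49 times (median 4.31) and mitochondrial members 1.26 to 3.42 times (median 1.53).

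**Figure D1:**
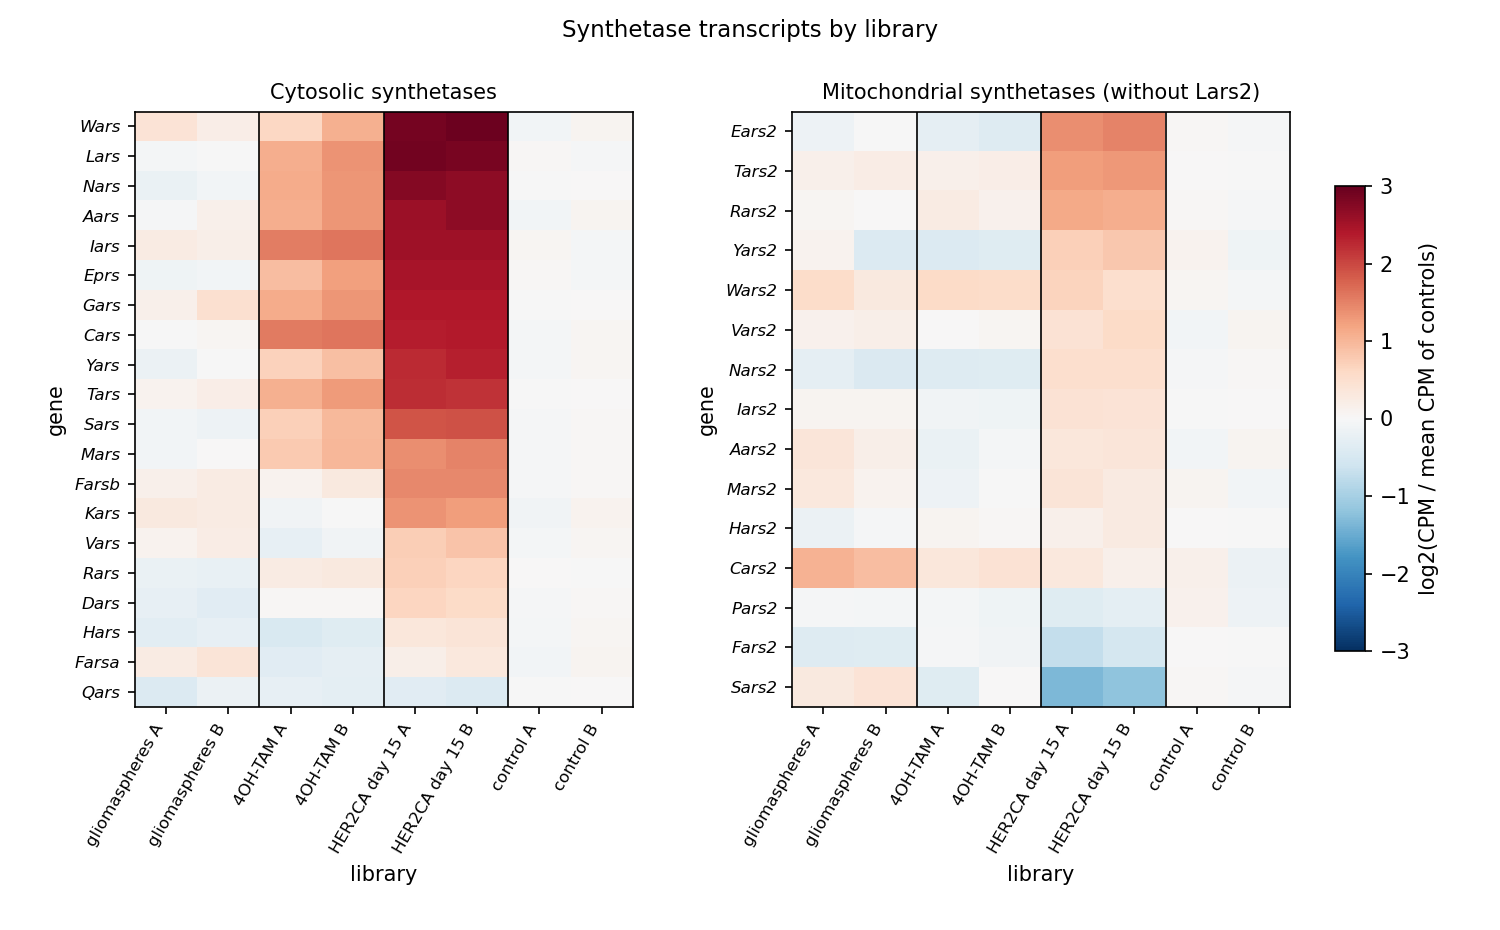
Each row is a gene and each column a library; colour gives log2 of the library's CPM over the mean CPM of the 2 controls, red higher and blue lower, with cytosolic synthetases on the left and mitochondrial ones without Lars2 on the right. HER2CA day 15 was the highest group by mean in 18 of 20 cytosolic and 11 of 15 mitochondrial genes, and in 15 and 3 of these genes it was followed by the 4OH-TAM-labelled libraries.

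HER2CA day 15 astrocytes were compared with controls, which had neither doxycycline nor induced HER2CA. Whether controls carried the constructs is not given, so effects of oncogene, doxycycline and transduction cannot be told apart here. Cytosolic synthetase transcripts rose almost as a class: 19 of 20 were called higher and 1 lower, and 14 rose at least 2-fold, and the median log2 fold change of the 20 genes was 2.05. Of all 13607 genes, 37.3% were called higher, 38.4% lower and 10.1% called and at least 2-fold higher, and their median was -0.02. The largest increases were those of Wars, Lars and Nars, the tryptophanyl, leucyl and asparaginyl enzymes, between 6.59-fold and 7.49-fold. Qars was the 1 cytosolic member that fell.

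Wars (chr12:108860030-108894174, minus strand) was at 100.2 and 86.4 CPM in gliomaspheres, 116 and 159 CPM in the 4OH-TAM-labelled libraries, 555 and 577 CPM at HER2CA day 15 and 71.3 and 79.7 CPM in controls. The HER2CA day 15 libraries lay above all others, at 7.49 times the control level (log2 fold change 2.91 with SE 0.123, edgeR quasi-likelihood adjusted p = 2.11e-11). Lars was at 86.4 and 89.1 CPM in gliomaspheres, 189 and 226 CPM in the 4OH-TAM-labelled libraries, 665 and 641 CPM at HER2CA day 15 and 90.9 and 87.8 CPM in controls. It stood 7.31-fold higher at HER2CA day 15 than in controls (log2 fold change 2.87 with SE 0.0885, edgeR quasi-likelihood adjusted p = 1.36e-12). Gliomaspheres overlapped controls. Nars was at 155 and 167 CPM in gliomaspheres, 383 and 443 CPM in the 4OH-TAM-labelled libraries, 1196 and 1154 CPM at HER2CA day 15 and 176 and 181 CPM in controls. It was 6.59-fold higher at HER2CA day 15 than in controls (log2 fold change 2.72 with SE 0.0867, edgeR quasi-likelihood adjusted p = 1.69e-12).

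Per kilobase of exon, Nars was the most abundant cytosolic synthetase transcript at HER2CA day 15, at 269.8 CPM per kb, or 15.7% of the cytosolic sum, followed by Wars (164 CPM per kb). In controls Hars, the histidyl enzyme, led at 44.3 CPM per kb (9.68%), Nars followed at 40.9 CPM per kb, and Wars stood in place 10 at 21.9 CPM per kb. Between these groups the ranking of the enzymes therefore differed along with their sum. Ranks per kilobase depend on exon length, which joins all annotated transcripts of a gene. By CPM alone, Aars (1337) and Eprs (1321) lay above Nars (1175) at HER2CA day 15. In controls Eprs (237) and Aars (217) led by CPM, and Hars was at 108. In fold change over controls, Wars, Lars and Nars were followed by Aars (6.17-fold), Iars (5.82-fold), Eprs (5.57-fold), Gars (5.29-fold), Cars (5.18-fold), Yars (4.91-fold) and Tars (4.595-fold), all past the test. Of these, Aars, Iars, Gars, Yars and Tars hold the core shown above and the Eprs promoter held none. The promoters of Sars (3.71-fold), Mars (2.73-fold), Farsb (2.72-fold) and Kars (2.46-fold), which came next, held none either. A link between core and fold change was not tested. Wars, Lars, Nars and Cars had no promoter in the table. Aars shares exon sequence with Exosc6 on the same strand, and Mars overlaps Ddit3, the gene of CHOP, on the opposite strand. The strand setting of the counting is not given, so their reads may not be separable.

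The low end of the class held enzymes outside the list of known ATF4 or CHOP targets. That list was written with earlier results of these data known, so the split is only a description. Of the 13 listed genes, 13 were higher and 12 at least 2-fold higher, with a median log2 fold change of 2.40. Of the 7 others, Dars, Farsa, Farsb, Hars, Kars, Qars and Rars, 6 were higher and 1 lower, with a median of 0.61, and 2 of them, Farsb and Kars, were at least 2-fold higher. The 6 were 2 without scaling factors and 2 in the test against a 1.5-fold change. Vars, the valyl enzyme, was the listed gene with the smallest increase (log2 fold change 0.79 with SE 0.0795, edgeR quasi-likelihood adjusted p = 2.83e-07). Farsa and Farsb encode subunits of the same enzyme but differed: Farsb was at 151 and 152 CPM at HER2CA day 15, against 54.2 and 56.97 CPM in controls (log2 fold change 1.44 with SE 0.0775, edgeR quasi-likelihood adjusted p = 2.61e-10), and Farsa at 42.4 and 46.7 CPM at HER2CA day 15, against 35.7 and 39.7 CPM in controls (log2 fold change 0.24 with SE 0.0884, edgeR quasi-likelihood adjusted p = 0.0207). The Farsa call was lost without HER2CA day 15 B or without control A. Qars was at 83.7 and 98.03 CPM in gliomaspheres, 93.02 and 90.4 CPM in the 4OH-TAM-labelled libraries, 86.8 and 83.4 CPM at HER2CA day 15 and 109.5 and 112 CPM in controls, highest in controls, and fell by 0.38 on the log2 scale at HER2CA day 15 (with SE 0.0779, edgeR quasi-likelihood adjusted p = 0.000417). The call was lost in the test against a 1.5-fold change and without scaling factors (log2 fold change -0.43, edgeR quasi-likelihood adjusted p = 0.23). By structural class, the 10 class I enzymes, with Eprs counted by its glutamyl part although its prolyl part is class II, had a median log2 fold change of 2.33 (9 higher, 1 lower) and the 10 class II enzymes one of 1.67 (10 higher).

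**Figure D2:**
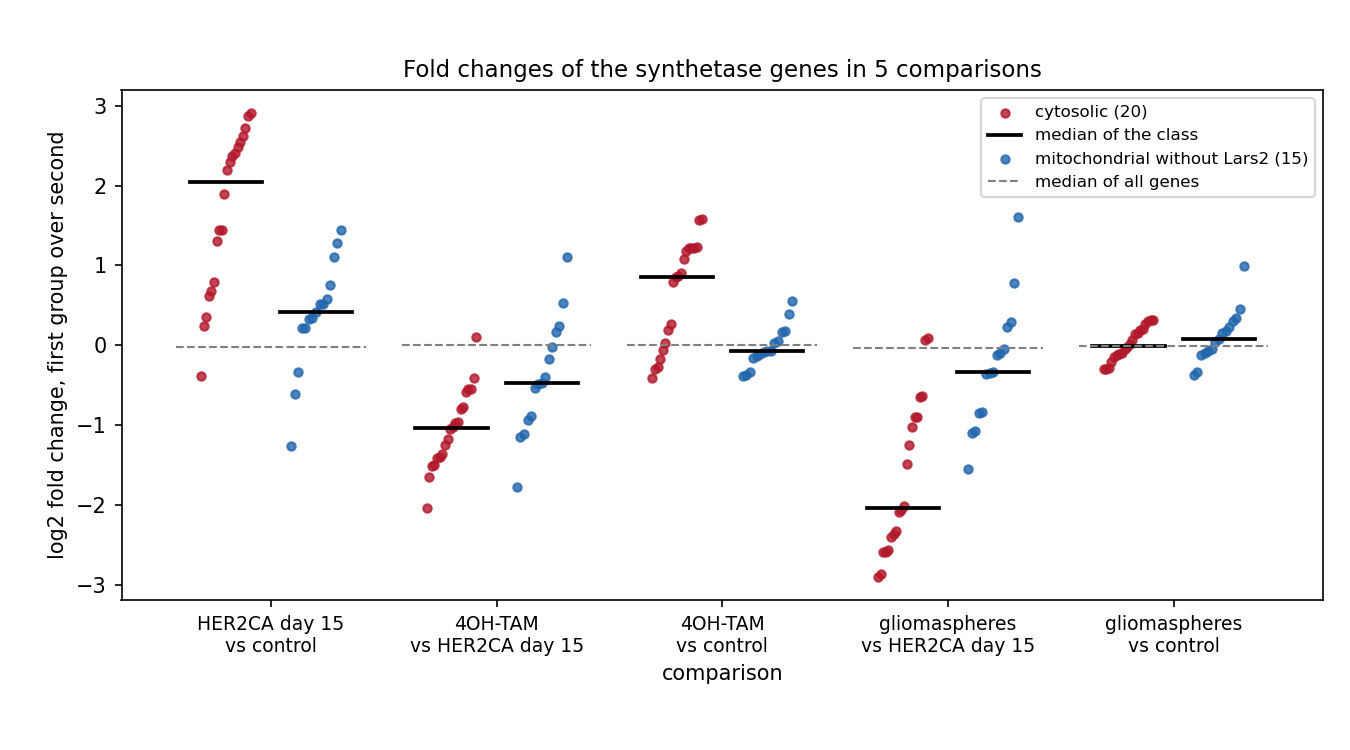
Points are the log2 fold changes of the 20 cytosolic (red) and 15 mitochondrial (blue) synthetase genes in 5 comparisons, each the first-named group over the second; solid bars are the medians of a class and dashed lines the median of all genes. Cytosolic medians were 2.05 for HER2CA day 15 over control, -1.03 for 4OH-TAM over HER2CA day 15, 0.86 for 4OH-TAM over control, -2.03 for gliomaspheres over HER2CA day 15 and -0.01 for gliomaspheres over control; the mitochondrial ones were 0.42, -0.48, -0.07, -0.33 and 0.08.

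Mitochondrial synthetases had smaller fold changes, in both directions, between HER2CA day 15 and controls. Of 15, 11 were called higher and 3 lower, where 37.3% and 38.4% of all genes were. By at least 2-fold, 3 rose and 1 fell (10.1% and 19.5% of all genes), and the median log2 fold change was 0.42. Of the 14 calls, 9 were lost without scaling factors and 10 in the test against a 1.5-fold change. The median was 0.26 to 0.43 under every alternative. The tests share 1 estimate of the spread over all 8 libraries, gliomaspheres B included, so a lost call need not mean a changed fold change. Ears2, the glutamyl enzyme, rose most, followed by Tars2 and Rars2, the threonyl and arginyl enzymes, while Sars2, the seryl enzyme, fell to less than in any other group.

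Ears2 (chr7:122037213-122067263, minus strand) was at 10.6 and 11.8 CPM in gliomaspheres, 9.84 and 9.07 CPM in the 4OH-TAM-labelled libraries, 31.5 and 33.2 CPM at HER2CA day 15 and 12.2 and 11.6 CPM in controls. HER2CA day 15 alone stood out, at 2.72 times the control level (log2 fold change 1.44 with SE 0.102, edgeR quasi-likelihood adjusted p = 5.69e-09). Tars2 was at 30.01 and 31.8 CPM in gliomaspheres, 29.8 and 30.8 CPM in the 4OH-TAM-labelled libraries, 64.2 and 66.96 CPM at HER2CA day 15 and 27.1 and 27.02 CPM in controls, again with HER2CA day 15 above the rest (log2 fold change 1.28 with SE 0.0775, edgeR quasi-likelihood adjusted p = 9.91e-10). Rars2 was at 39.98 and 38.5 CPM in gliomaspheres, 45.2 and 41.7 CPM in the 4OH-TAM-labelled libraries, 83.9 and 81.8 CPM at HER2CA day 15 and 39.1 and 37.5 CPM in controls, and rose 2.16-fold at HER2CA day 15 (log2 fold change 1.11 with SE 0.0759, edgeR quasi-likelihood adjusted p = 3.71e-09). Sars2 (chr7:28741992-28753871, plus strand) went the other way, at 9.39 and 10.2 CPM in gliomaspheres, 5.94 and 7.77 CPM in the 4OH-TAM-labelled libraries, 3.02 and 3.31 CPM at HER2CA day 15 and 7.83 and 7.46 CPM in controls. Its HER2CA day 15 level was 2.401-fold lower than in controls (log2 fold change -1.26 with SE 0.167, edgeR quasi-likelihood adjusted p = 5.7e-06), on 66 and 96 counts.

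Fars2, the phenylalanyl enzyme, and Pars2, the prolyl enzyme, were the other mitochondrial members called lower. Fars2 was at 10.6 and 12.1 CPM at HER2CA day 15, against 17.6 and 17.2 CPM in controls (log2 fold change -0.60 with SE 0.109, edgeR quasi-likelihood adjusted p = 0.00013). Pars2 was at 6.78 and 7.17 CPM at HER2CA day 15, against 9.68 and 7.91 CPM in controls (log2 fold change -0.33 with SE 0.138, edgeR quasi-likelihood adjusted p = 0.0401). Its call was lost when control A, HER2CA day 15 A or HER2CA day 15 B was left out, with edgeR quasi-likelihood adjusted p of 0.306, 0.137 and 0.0773. Cars2 did not pass the test. Fars2 shares exon sequence with Lyrm4 and Nrn1, Ears2 with Ubfd1, Iars2 with Rab3gap2, and Hars2 with Hars, in each case on the opposite strand. With the strand setting not given, these reads too may not be separable. Iars2, the most abundant mitochondrial member by CPM, was at 117 and 118 CPM in gliomaspheres, 104 and 101 CPM in the 4OH-TAM-labelled libraries, 149.6 and 146 CPM at HER2CA day 15 and 111 and 111 CPM in controls, a narrow range.

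The 4OH-TAM-labelled libraries, which the labels call YAP/TAZ knockout, were compared with HER2CA day 15. No group had 4OH-TAM without HER2CA, so effects of the drug, of CreERT2 activity and of YAP/TAZ loss cannot be told apart here. Cytosolic synthetases were lower in the 4OH-TAM-labelled libraries: 19 of 20 were called lower and 0 higher, 11 of them at least 2-fold, with a median log2 fold change of -1.03. Over all genes, 39.7% were called lower, 40.8% higher and 9.3% called and at least 2-fold lower, with a median of 0.01. Wars, Lars and Nars fell most. The drop was 4.11-fold for Wars (log2 fold change -2.04 with SE 0.118, edgeR quasi-likelihood adjusted p = 5.28e-10), 3.14-fold for Lars (log2 fold change -1.65 with SE 0.08398, edgeR quasi-likelihood adjusted p = 1.2e-10) and 2.84-fold for Nars (log2 fold change -1.51 with SE 0.0828, edgeR quasi-likelihood adjusted p = 2.9e-10).

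The groups did not overlap in any of the 19 genes, while 45.6% of all genes had both 4OH-TAM-labelled libraries below both HER2CA day 15 libraries. Qars, at 93.02 and 90.4 CPM in the 4OH-TAM-labelled libraries, against 86.8 and 83.4 CPM at HER2CA day 15, did not pass the test (log2 fold change 0.11 with SE 0.0781, edgeR quasi-likelihood adjusted p = 0.212), and was called higher with upper-quartile scaling. The listed ATF4 or CHOP targets had 13 of 13 lower with a median of -1.17, and the 7 others 6 lower with a median of -0.58 (2 lower without scaling factors and 3 in the test against a 1.5-fold change). In the 4OH-TAM-labelled pair, library A over library B had a median ratio of 0.877 over the 20 genes. With any 1 library of the pair of groups left out, 19 genes were called lower, at a median of -1.16 to -0.92.

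Among mitochondrial synthetases, 9 of 15 were called lower and 2 higher in the 4OH-TAM-labelled libraries than at HER2CA day 15, with a median log2 fold change of -0.48. Over all genes, 39.7% were called lower and 40.8% higher. Of the 11 mitochondrial calls, 5 were lost without scaling factors and 5 in the test against a 1.5-fold change. Their class median was -0.50 to -0.27 under every alternative. The largest decreases were those of Ears2, Yars2 and Tars2. Ears2 was 3.42-fold lower (log2 fold change -1.78 with SE 0.104, edgeR quasi-likelihood adjusted p = 6.19e-10), Yars2, the tyrosyl enzyme, 2.22-fold (log2 fold change -1.15 with SE 0.131, edgeR quasi-likelihood adjusted p = 1.01e-06) and Tars2 2.16-fold (log2 fold change -1.11 with SE 0.0766, edgeR quasi-likelihood adjusted p = 3.57e-09). The HER2CA day 15 libraries enter this comparison and the one with controls. Sars2 and Fars2 were higher in the 4OH-TAM-labelled libraries. Sars2 was 2.15-fold higher (log2 fold change 1.11 with SE 0.168, edgeR quasi-likelihood adjusted p = 2.23e-05), and Fars2, at 17.1 and 16.1 CPM in the 4OH-TAM-labelled libraries, against 10.6 and 12.1 CPM at HER2CA day 15, 1.45-fold (log2 fold change 0.54 with SE 0.109, edgeR quasi-likelihood adjusted p = 0.000351). The Fars2 call was lost without scaling factors and in the test against a 1.5-fold change.

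Against controls, the 4OH-TAM-labelled libraries had higher cytosolic synthetase transcripts, while few mitochondrial ones were called in either direction. Of the 20 cytosolic genes, 14 were called higher, 8 of them at least 2-fold, and 3 lower, with a median log2 fold change of 0.86, where 31% of all genes were called higher, 28.2% lower and 12.1% called and at least 2-fold higher. Cars and Iars, the cysteinyl and isoleucyl enzymes, led. Cars was at 47.7 and 50.4 CPM in gliomaspheres, 142 and 148 CPM in the 4OH-TAM-labelled libraries, 248 and 253 CPM at HER2CA day 15 and 46.7 and 50.05 CPM in controls, 2.99 times the control level in the 4OH-TAM-labelled libraries (log2 fold change 1.58 with SE 0.0711, edgeR quasi-likelihood adjusted p = 2.46e-10). Iars was at 116 and 111 CPM in gliomaspheres, 283 and 301 CPM in the 4OH-TAM-labelled libraries, 570.3 and 572 CPM at HER2CA day 15 and 103 and 93.7 CPM in controls (log2 fold change 1.57 with SE 0.0751, edgeR quasi-likelihood adjusted p = 4.22e-10), and Gars came next (log2 fold change 1.23 with SE 0.0982, edgeR quasi-likelihood adjusted p = 8.83e-08).

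Wars, first in both other comparisons, was here 1.82-fold higher (log2 fold change 0.86 with SE 0.118, edgeR quasi-likelihood adjusted p = 1.94e-05). Hars (-0.41), Farsa (-0.30) and Qars (-0.27) were called lower on the log2 scale, with edgeR quasi-likelihood adjusted p of 0.000173, 0.0104 and 0.0077. The Farsa call was lost without 4OH-TAM-labelled library A or without control B, and the Qars call without 4OH-TAM-labelled library B. Of the 15 mitochondrial genes, 2 were called higher, Wars2 (log2 fold change 0.55 with SE 0.112, edgeR quasi-likelihood adjusted p = 0.000661) and Cars2 (log2 fold change 0.39 with SE 0.143, edgeR quasi-likelihood adjusted p = 0.03), and 3 lower, Yars2, Nars2 and Ears2, at -0.39, -0.38 and -0.33 on the log2 scale (edgeR quasi-likelihood adjusted p of 0.0228, 0.00133 and 0.0184). The median was -0.07, and 31% of all genes were called higher and 28.2% lower. The count of 3 lower was 1 without 4OH-TAM-labelled library B and 1 without control A, and Yars2 lost its call also without 4OH-TAM-labelled library A. Cars2 lost its call without either 4OH-TAM-labelled library or without control B.

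Gliomaspheres also carried HER2CA, and their cytosolic synthetase transcripts were near those of controls. The spheres were P1, grown in suspension and taken at 3 weeks, and HER2CA day 15 astrocytes at 15 days. Effects of culture form, passage and time therefore cannot be told apart here. Against HER2CA day 15, 18 of 20 cytosolic members were called lower and 0 higher in gliomaspheres, 14 at least 2-fold, with a median log2 fold change of -2.03, where 40.4% of all genes were called lower, 38.4% higher and 14.1% called and at least 2-fold lower. The count was also 18 without gliomaspheres B, at a median of -2.0. Lars was 7.45-fold lower (log2 fold change -2.90 with SE 0.0898, edgeR quasi-likelihood adjusted p = 3.46e-13), Nars 7.29-fold (log2 fold change -2.87 with SE 0.0879, edgeR quasi-likelihood adjusted p = 3.06e-13) and Wars 6.03-fold (log2 fold change -2.59 with SE 0.123, edgeR quasi-likelihood adjusted p = 3.71e-11). Farsa and Qars did not pass the test.

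Among the 15 mitochondrial genes, 8 were called lower and 2 higher in gliomaspheres than at HER2CA day 15, with a median of -0.33, and the same counts were found without gliomaspheres B. Over all genes, 40.4% were called lower and 38.4% higher. The mitochondrial decreases were led by Ears2 (log2 fold change -1.54 with SE 0.1098, edgeR quasi-likelihood adjusted p = 4.15e-09), Tars2 (log2 fold change -1.09 with SE 0.0802, edgeR quasi-likelihood adjusted p = 5.92e-09) and Rars2 (log2 fold change -1.07 with SE 0.0786, edgeR quasi-likelihood adjusted p = 5.92e-09). Sars2 was 3.05-fold higher in gliomaspheres (log2 fold change 1.61 with SE 0.171, edgeR quasi-likelihood adjusted p = 4.52e-07) and Cars2 1.71-fold (log2 fold change 0.78 with SE 0.142, edgeR quasi-likelihood adjusted p = 0.000136).

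Against controls, 0 cytosolic members were called with a rise of at least 2-fold in gliomaspheres, against 11.4% of all genes, and 0 with an equal fall, against 8.58% of all genes. Of 20, 5 were called higher (Farsa, Gars, Iars, Kars and Wars) and 4 lower (Dars, Hars, Qars and Rars), with a median of -0.01, where 32.5% of all genes were called higher and 32% lower. The largest increases were those of Gars (log2 fold change 0.32 with SE 0.0999, edgeR quasi-likelihood adjusted p = 0.0117), Wars (log2 fold change 0.31 with SE 0.121, edgeR quasi-likelihood adjusted p = 0.0338) and Farsa (log2 fold change 0.31 with SE 0.0913, edgeR quasi-likelihood adjusted p = 0.00827), and the largest decreases those of Qars (log2 fold change -0.29 with SE 0.0795, edgeR quasi-likelihood adjusted p = 0.00474), Dars (log2 fold change -0.29 with SE 0.0683, edgeR quasi-likelihood adjusted p = 0.00164) and Hars (log2 fold change -0.29 with SE 0.0721, edgeR quasi-likelihood adjusted p = 0.00285). The 5 increases were 4 without gliomaspheres B, 1 without control A and 0 without scaling factors. Gars lost its call without gliomaspheres B (log2 fold change 0.15), and Farsa and Gars turned to -0.029 and -0.043 without scaling factors, where gliomaspheres B enters with its ribosomal reads in the total. Iars, Qars and Wars lost their calls without gliomaspheres A, Farsa, Gars, Kars, Rars and Wars without control A, and Iars without control B. Without scaling factors and in the test against a 1.5-fold change none of the 9 calls was kept.

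Of the 15 mitochondrial genes, 3 were called higher and 2 lower in gliomaspheres than in controls (32.5% and 32% of all genes), with a median of 0.08. Cars2, the cysteinyl enzyme, stood out: it was at 13.96 and 12.8 CPM in gliomaspheres, 8.58 and 9.104 CPM in the 4OH-TAM-labelled libraries, 8.34 and 7.49 CPM at HER2CA day 15 and 7.53 and 5.97 CPM in controls. Both gliomasphere libraries lay above all others, at 1.996 times the control level (log2 fold change 0.997 with SE 0.144, edgeR quasi-likelihood adjusted p = 2.46e-05), and the log2 fold change was 1.04 without gliomaspheres B. Wars2 (log2 fold change 0.46 with SE 0.118, edgeR quasi-likelihood adjusted p = 0.0035) and Aars2 (log2 fold change 0.30 with SE 0.108, edgeR quasi-likelihood adjusted p = 0.0252) were also higher, and Aars2 turned to -0.018 without scaling factors. Fars2 (log2 fold change -0.38 with SE 0.114, edgeR quasi-likelihood adjusted p = 0.00947) and Nars2 (log2 fold change -0.34 with SE 0.0875, edgeR quasi-likelihood adjusted p = 0.00341) were lower. The count of 3 was 4 without gliomaspheres B and 1 without gliomaspheres A. Wars2, Aars2 and Fars2 lost their calls without gliomaspheres A, and Aars2 also without control A. Without scaling factors 0 of the 5 calls were kept, that of Cars2 included, and in the test against a 1.5-fold change only that of Cars2.

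Enzymes for the same amino acid can be set side by side in 15 pairs without Lars2, with Eprs standing for both glutamate and proline and Farsa for phenylalanine. The log2 fold change of the cytosolic gene was above that of its mitochondrial partner in 14 of 15 pairs for HER2CA day 15 against controls, by a median of 1.53. The widest gap was that of serine, with Sars at 1.89 and Sars2 at -1.26, and arginine was the exception, with Rars at 0.68 and Rars2 at 1.11. With 4OH-TAM over HER2CA day 15 the cytosolic value was the lower one in 12 of 15 pairs (median difference -0.60), and glutamate, threonine and arginine were the exceptions. Against controls the 4OH-TAM-labelled libraries had the cytosolic value above in 12 of 15 pairs (median difference 1.01). Gliomaspheres had it below in 14 of 15 pairs against HER2CA day 15 (median difference -1.56) and in 11 of 15 against controls (-0.06). These comparisons share libraries, so the counts are a description of one data set seen from several sides.

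**Figure D3:**
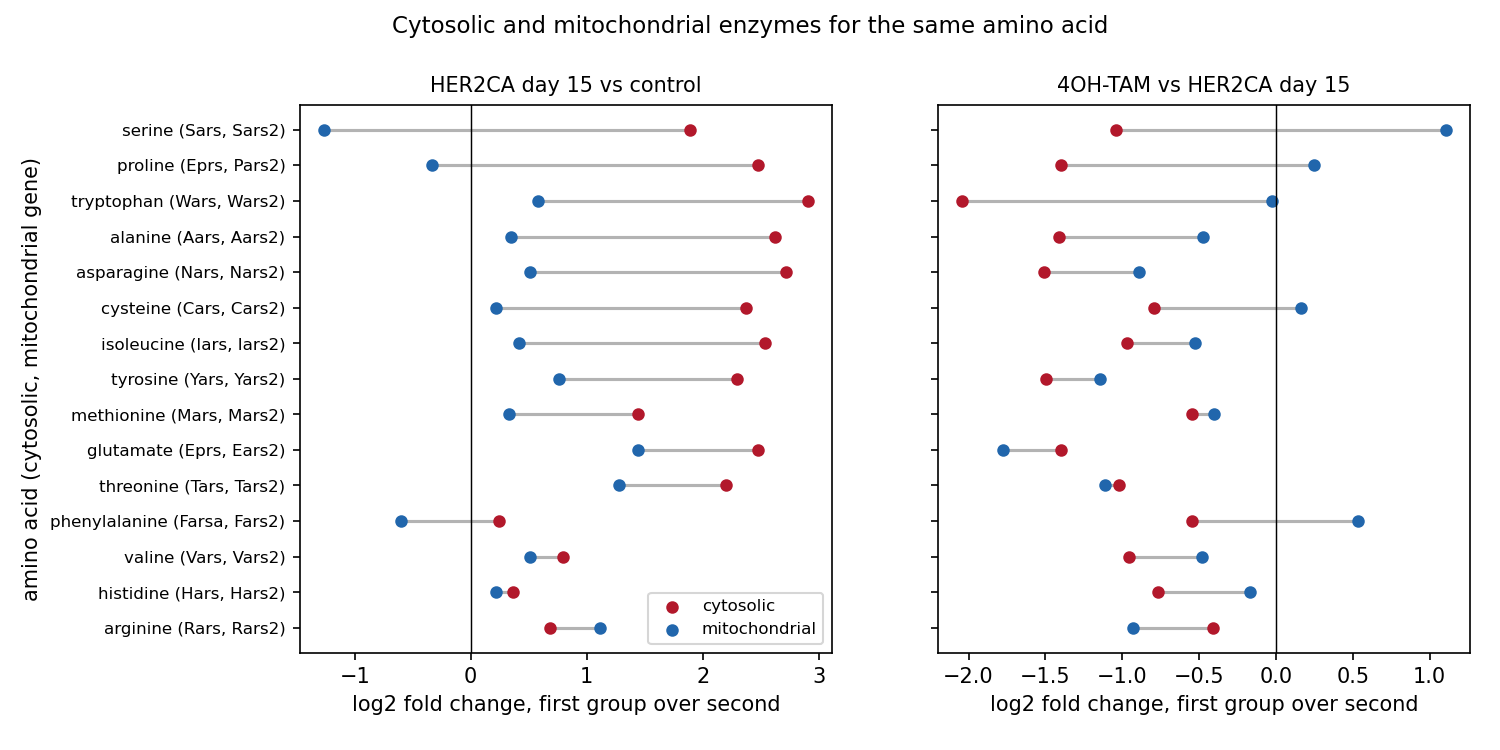
Each line joins the log2 fold changes of the cytosolic (red) and the mitochondrial (blue) synthetase gene for the same amino acid, for HER2CA day 15 over control on the left and 4OH-TAM over HER2CA day 15 on the right. On the left the red point lies to the right of the blue in all pairs but arginine, and on the right it lies to the left in 12 of 15.

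Several cytosolic synthetases assemble with scaffold proteins into the multisynthetase complex. Of its 8 synthetases (Eprs, Iars, Lars, Mars, Qars, Rars, Kars and Dars), 7 were higher and 1 lower at HER2CA day 15 than in controls (37.3% and 38.4% of all genes), with a median log2 fold change of 1.37. The scaffold genes Aimp1, Aimp2 and Eef1e1 were 3 of 3 higher, at 1.46, 0.74 and 1.09 on the log2 scale (edgeR quasi-likelihood adjusted p of 1.78e-08, 1.32e-06 and 1.15e-08). All 3 were called lower in the 4OH-TAM-labelled libraries than at HER2CA day 15 (39.7% of all genes), at -1.46, -0.97 and -1.51. Of the complex's synthetases, 5 were higher and 1 lower in the 4OH-TAM-labelled libraries than in controls (31% and 28.2% of all genes). Of the scaffolds 0 were higher there and 2 lower, and these were Aimp2 (log2 fold change -0.23 with SE 0.0888, edgeR quasi-likelihood adjusted p = 0.0347) and Eef1e1 (log2 fold change -0.42 with SE 0.0854, edgeR quasi-likelihood adjusted p = 0.00064). That count of 2 was 1 with any library of the groups left out, with DESeq2, with upper-quartile factors and with the 5 CPM filter, and 0 without scaling factors and in the test against a 1.5-fold change.

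Downstream of the cytosolic enzymes, 3 of 5 genes for tRNA delivery and export were higher and 0 lower at HER2CA day 15 than in controls, where 37.3% of all genes were higher and 38.4% lower. Xpot, which exports tRNA from the nucleus, had a log2 fold change of 0.97 and Eef1g and Eef1d, subunits of the elongation factor's exchange complex, 0.80 and 0.68 (edgeR quasi-likelihood adjusted p of 6.89e-08, 6.74e-08 and 8.09e-07). Eef1a1, the factor that brings charged tRNA to the ribosome, did not pass the test (log2 fold change 0.07 with SE 0.0853, edgeR quasi-likelihood adjusted p = 0.451). Of 8 mitochondrial translation factors, 5 were higher and 0 lower, at a median of 0.53. The count higher was 2 without scaling factors and 2 in the test against a 1.5-fold change. Mrrf, a ribosome recycling factor, had the highest fold change (log2 fold change 0.96 with SE 0.0887, edgeR quasi-likelihood adjusted p = 1.17e-07). Of the 4 genes acting on charged mitochondrial tRNA, Gatc and Mtfmt were higher and Qrsl1 lower. The count of 2 higher was 1 with DESeq2, with upper-quartile factors, without scaling factors, in the test against a 1.5-fold change, without HER2CA day 15 B and without control A. Gatb, Gatc and Qrsl1 encode the enzyme that turns glutamyl-tRNA into glutaminyl-tRNA, yet they moved apart: Gatc had 0.97 (edgeR quasi-likelihood adjusted p = 6.96e-08), Qrsl1 -0.996 (edgeR quasi-likelihood adjusted p = 1.25e-05) and Gatb 0.29 (edgeR quasi-likelihood adjusted p = 0.0554) as log2 fold change. Gatb was highest in gliomaspheres, with a log2 fold change over controls of 1.34 (edgeR quasi-likelihood adjusted p = 3.11e-07).

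The integrated stress response list, 22 genes outside the synthetases, was also highest at HER2CA day 15 and next in the 4OH-TAM-labelled libraries by its sum, which was 1574 and 1665 CPM in gliomaspheres, 3765 and 4504 CPM in the 4OH-TAM-labelled libraries, 7275 and 7500.4 CPM at HER2CA day 15 and 1344 and 1365 CPM in controls. At HER2CA day 15, 20 of 22 were higher and 1 lower than in controls (37.3% and 38.4% of all genes), with a median log2 fold change of 2.72. Atf4 had 3.27, Ddit3 2.82 and Trib3, a pseudokinase induced by CHOP, 6.56 (edgeR quasi-likelihood adjusted p of 7.25e-13, 2.83e-12 and 1.72e-13). Ddit4, an inhibitor of mTORC1, was the 1 that fell (log2 fold change -2.45 with SE 0.111, edgeR quasi-likelihood adjusted p = 4.5e-11). Among promoters of the listed genes the core was found in 7 of 20 (35%).

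In the 4OH-TAM-labelled libraries, 17 of the 22 were lower and 3 higher than at HER2CA day 15 (39.7% and 40.8% of all genes). Against controls, 20 were higher and 1 lower (31% and 28.2% of all genes). The count lower than at HER2CA day 15 was 10 without scaling factors and 10 in the test against a 1.5-fold change. Atf4 was at -1.19 and 2.07 in these comparisons (edgeR quasi-likelihood adjusted p of 4.82e-09 and 1.61e-10), and Asns, asparagine synthetase, at -1.01 and 3.10. In gliomaspheres 12 were higher and 8 lower than in controls (32.5% and 32% of all genes), with 2 and 7 without scaling factors and 7 and 5 in the test against a 1.5-fold change. Among them were Psat1, a serine synthesis enzyme (log2 fold change 0.99 with SE 0.0835, edgeR quasi-likelihood adjusted p = 7.87e-08), and Ddit3 (log2 fold change -1.65 with SE 0.118, edgeR quasi-likelihood adjusted p = 1.31e-08). Against HER2CA day 15, 21 were lower and 1 higher in gliomaspheres (40.4% and 38.4% of all genes). Among the transcripts of the 4 eIF2alpha kinases, at HER2CA day 15 0 were higher and 2 lower than in controls, where 37.3% and 38.4% of all genes were. The lower ones were Eif2ak3 (log2 fold change -0.88 with SE 0.0894, edgeR quasi-likelihood adjusted p = 3.11e-07) and Eif2ak2 (log2 fold change -0.23 with SE 0.0852, edgeR quasi-likelihood adjusted p = 0.0253). Kinase transcripts do not report kinase activity.

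Lars2 (chr9:123366927-123462666, plus strand) was at 432 and 43550.0 CPM in gliomaspheres, 849 and 897 CPM in the 4OH-TAM-labelled libraries, 968 and 969 CPM at HER2CA day 15 and 1559 and 1133 CPM in controls. Gliomaspheres A was the lowest library and gliomaspheres B the highest. Rn45s was at 9310.5 and 566480.0 CPM in gliomaspheres, 13971 and 14755 CPM in the 4OH-TAM-labelled libraries, 12975 and 13387 CPM at HER2CA day 15 and 27492 and 18618 CPM in controls, lowest and highest in the same libraries. Per 100 Rn45s reads there were 4.64 and 7.69 Lars2 reads in gliomaspheres, 6.08 and 6.08 in the 4OH-TAM-labelled libraries, 7.46 and 7.24 at HER2CA day 15 and 5.67 and 6.08 in controls, a range of 4.64 to 7.69 while Rn45s counts ranged over 222155 to 5599427.

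The Lars2 fold changes are therefore given without weight on the gene itself. Gliomaspheres against controls gave a log2 fold change of 4.03 (with SE 1.09, edgeR quasi-likelihood adjusted p = 0.00475), which turned to -1.64 (edgeR quasi-likelihood adjusted p = 2.56e-09) without gliomaspheres B. Its call was lost without control B (edgeR quasi-likelihood adjusted p = 0.0558). Against HER2CA day 15 it was 4.50 (with SE 1.12, edgeR quasi-likelihood adjusted p = 0.00182) with gliomaspheres B and -1.12 (edgeR quasi-likelihood adjusted p = 1.53e-07) without it. The other comparisons did not pass the test, at -0.47 for HER2CA day 15 over controls, -0.15 for the 4OH-TAM-labelled libraries over HER2CA day 15 and -0.62 for them over controls, with SE of 0.972, 0.9700 and 0.973. A fit on only the groups compared called the first (-0.49, edgeR quasi-likelihood adjusted p = 3.14e-05) and the last (-0.63, edgeR quasi-likelihood adjusted p = 7.82e-05).

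**Figure D4:**
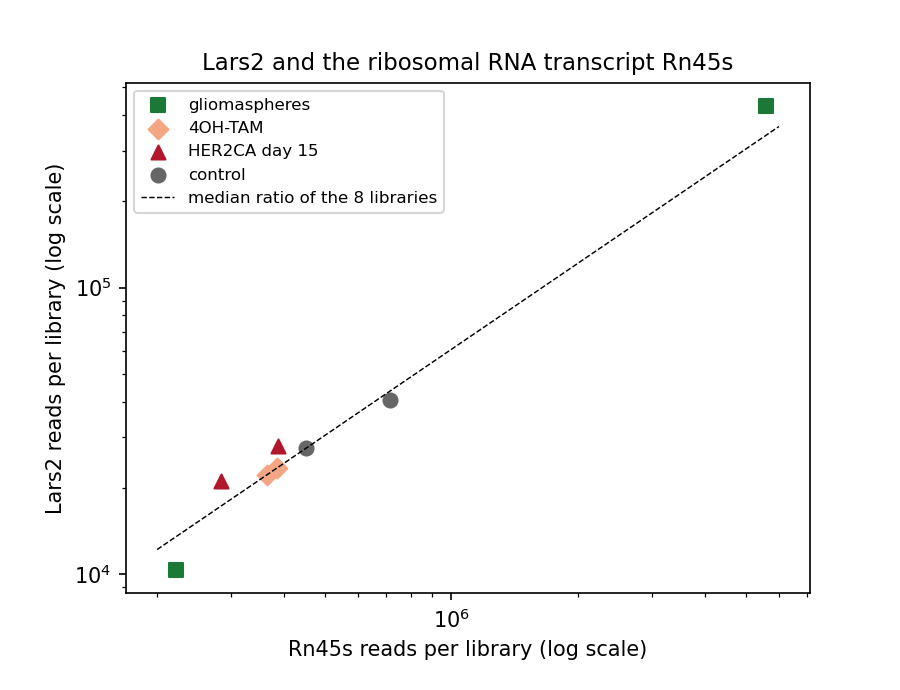
Each point is a library, with Rn45s reads on the horizontal and Lars2 reads on the vertical axis, both on log scales; the dashed line is the median ratio of the 8 libraries. Gliomaspheres B lies at the upper right with 430481 Lars2 reads beside 5599427 Rn45s reads, and the other 7 libraries hold 10307 to 40596 Lars2 reads.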

How the data were processed

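The authors deposited a table of whole-number read counts per gene symbol for 8 stranded mRNA libraries, not normalised. Per the submitters' processing notes, which give no role or order, the tools were featureCounts, FastQC and STAR 2.5.3a, with mm10 and GRCm38 named as builds. The annotation and the strand option of featureCounts were not given in the sources used here. Each column was matched to its sample by title. Every one of the 13607 symbols was at 1 CPM or above in at least 2 libraries; genes under that were not analysed here.

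From these counts, edgeR 4.0.16 (R 4.3.3) with TMM factors and filterByExpr, which kept 13607 genes, gave quasi-likelihood tests from a model of the 4 group means over all 8 libraries (4 residual degrees of freedom). Tests used Benjamini-Hochberg adjustment over all genes at 0.05; SE is the absolute log2 fold change over the square root of F. Lists are described by counts and medians beside those of all genes. The members, lists and comparisons were chosen with earlier results of these data known; the lists come from general knowledge. Full statistics are given for the 3 largest increases and decreases among called members of each class, for members called against their class, and for Lars2. Replicates were compared by chi-square per degree of freedom, which was 4.05 to 12.5 in 3 groups, and 723 in gliomaspheres (21.5 when Rn45s and Lars2 were left out), so none agreed within sampling noise. Positions and exon lengths are from GENCODE M21 on GRCm38, in which all 36 members matched, and promoters from RefSeq (GRCm38.p6); RefSeq start sites can lie inside the GENCODE gene, as for Aars and Yars. Alternatives were RLE, upper-quartile and no scaling factors, removal of Rn45s and Lars2, no filter, 5 CPM in 2 libraries, a test against a 1.5-fold change, a replicate block, a fit on the groups compared, DESeq2 1.42.0 and each library left out in turn. The fitting code was checked on simulated counts with known fold changes.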

Additional observations from a re-analysis of the deposited data

How the results depend on the processing

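Counts of cytosolic members called in the majority direction stayed within 1.5 times in 4 comparisons under every alternative run: 15 to 19 for HER2CA day 15 over controls, 14 to 19 for 4OH-TAM over HER2CA day 15, 16 to 18 for gliomaspheres over HER2CA day 15 and 12 to 14 for 4OH-TAM over controls. Gliomaspheres over controls gave 5 increases, against 3 with upper-quartile factors, 0 without scaling factors, 0 in the test against 1.5-fold and 1 to 4 with a library left out. Mitochondrial counts without scaling factors were 4 for HER2CA day 15 over controls, 5 for 4OH-TAM over HER2CA day 15, 0 for gliomaspheres over controls, 5 for gliomaspheres over HER2CA day 15 and 0 for 4OH-TAM over controls. In the test against 1.5-fold, which smaller changes cannot pass, they were 3, 5, 1, 5 and 0 in that order. With a library left out they were 1 to 4 for gliomaspheres over controls and 1 to 3 for 4OH-TAM over controls.

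Calls over all genes without scaling factors were 5890, 6375, 4646 and 2654 for HER2CA day 15 over controls, 4OH-TAM over HER2CA day 15, gliomaspheres over controls and 4OH-TAM over controls. Higher and lower calls then split 2304 to 3586 (5082 to 5226 with TMM), 4338 to 2037 (5547 to 5400), 1386 to 3260 (4427 to 4353) and 2115 to 539 (4221 to 3840), and 4OH-TAM over HER2CA day 15 split 6569 to 4109 with upper-quartile factors. In the test against 1.5-fold the calls were 5456, 6071, 3393 and 2417 in the same order, and 6237 for gliomaspheres over HER2CA day 15. The median of all genes moved to -0.17 for HER2CA day 15 over controls and 0.22 for 4OH-TAM over HER2CA day 15 with upper-quartile factors. Without scaling factors it moved to -0.33 for gliomaspheres over controls, -0.30 for gliomaspheres over HER2CA day 15 and 0.13 for 4OH-TAM over HER2CA day 15.

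Directions turned for Lars2 in 4OH-TAM over HER2CA day 15 with upper-quartile factors (0.057), and without scaling factors for Farsa (-0.029), Gars (-0.043) and Aars2 (-0.018) in gliomaspheres over controls. For Lars2 in gliomaspheres the log2 fold change was -1.64 to 5.02 over controls and -1.12 to 5.49 over HER2CA day 15 when a library was left out. Replicate letters did not pair the libraries: correlations of A minus B between groups were -0.0314 to 0.0554. With the replicate letter as a block, increases in gliomaspheres over controls were 7 cytosolic and 4 mitochondrial genes. Of 751 values of named members under an alternative, 665 kept direction and call, 78 lost the call, 2 gained it and 6 turned. Apart from the fit on the groups compared, the spread was estimated over all libraries in a fit. Gliomaspheres B without scaling therefore also enters comparisons it is not part of. Except for the test against 1.5-fold, the cause was not tested.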

Other observations

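Ddit4, Slc7a11 and Chac1 were the 3 genes of the stress response list called higher in the 4OH-TAM-labelled libraries than at HER2CA day 15. Slc7a11, the cystine transporter subunit, differed there (log2 fold change 1.03 with SE 0.138, edgeR quasi-likelihood adjusted p = 5.82e-06) and was also higher in gliomaspheres than in controls (log2 fold change 2.84 with SE 0.197, edgeR quasi-likelihood adjusted p = 8.92e-09). Chac1, which degrades glutathione, had a smaller difference (log2 fold change 0.27 with SE 0.0845, edgeR quasi-likelihood adjusted p = 0.008). These genes were picked after their values were seen.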
